A study of Mus musculus with 18 samples.

Results

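Gene deserts are long stretches of a chromosome without protein-coding genes. Many contain enhancers, short DNA elements bound by transcription factors that act on promoters over long distances by looping of the chromatin, and such elements are exposed to enzymes in the cell types in which they are bound. In macrophages, open enhancers are commonly bound by PU.1, the ETS factor that defines the lineage, together with C/EBP, AP-1 and RUNX factors, whereas CTCF binds boundaries and anchors of loops. The regions described here are the accessible regions of bone marrow-derived macrophages (BMDMs) that lie in gene deserts. They comprised 3346 of the 58386 accessible regions on the 19 mouse autosomes, out of 59617 extended regions in all.

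Each extended region was represented by its summit with the highest score. A region was called a desert region when that summit lay over 1000 bp from every annotated transcript start, outside the body of every protein-coding gene, and over 100 kb from the start of the nearest coding transcript. Position chose the members, and the score only decided which summit stood for a region.

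ATAC-seq, in which the Tn5 transposase tags exposed DNA, had been carried out on BMDMs differentiated in culture from bone marrow of wild type, male C57/BL6 mice aged 6 to 8 weeks. All cells had first received the vehicle DMSO for 1 h. The 18 libraries formed 9 groups of 2: 1 group left untreated, 4 stimulated with lipopolysaccharide (LPS, a ligand of TLR4) and 4 with the cytokine IL-4, both at 10 ng/mL, for 30 min, 1 h, 2 h or 4 h. The 3 deposited lists were pooled over all libraries and had no column per library, so no region could be compared between stimuli or time points, and neither replicate error nor depth per library is known. The lists held 82391 reference peaks, 59617 extended regions and 84660 summits with a score of 102 to 2781 whose scale is not stated.

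As a check of the cell type, a reference peak lay within 1000 bp of a start of 8 of 8 macrophage markers, among them Spi1, Csf1r and Adgre1. The same was found for 1 of 4 T cell markers (Lck), 2 of 4 B cell markers (Ms4a1 and Pax5), 1 of 4 neutrophil markers (S100a8), 0 of 4 erythroid markers and 2 of 4 fibroblast markers (Col1a1 and Pdgfra). The part of other cells in the desert regions was not tested.

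To show what desert summits look like in sequence, 5 windows are given, each a best summit with 100 bp to either side, on the plus strand of mm10 and in lower case, with matches to the motif for which it is shown in capitals. For each motif shown the window is that of the highest scored desert region, among 18 of the 19 autosomes, whose central 76 bases, the length of a read, occur once in the genome. The region with the highest score of all lay 156 kb upstream of Med13l, a subunit of the Mediator kinase module, and its window is also the one for AP-1, the dimer of FOS and JUN proteins. Capitals mark TGAGTCA in either orientation.
Desert region near Med13l, AP-1, chr5:118404442-118404642: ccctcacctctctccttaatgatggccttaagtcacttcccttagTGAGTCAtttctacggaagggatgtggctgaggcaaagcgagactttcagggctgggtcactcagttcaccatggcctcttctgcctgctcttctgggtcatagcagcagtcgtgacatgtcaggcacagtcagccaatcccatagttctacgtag
The next region by score, tied with others at 2140, lay 170 kb downstream of the start of Reep3, and its window also held an AP-1 site, in capitals.
Desert region near Reep3, AP-1, chr10:66864515-66864715: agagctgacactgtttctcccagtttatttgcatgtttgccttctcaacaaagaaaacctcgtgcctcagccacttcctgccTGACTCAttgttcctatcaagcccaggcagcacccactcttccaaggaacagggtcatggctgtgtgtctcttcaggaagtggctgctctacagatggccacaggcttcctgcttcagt
For PU.1 and related ETS factors, capitals mark the letters GAGGAAGT.
Desert region near Uaca, PU.1/ETS, chr9:60999170-60999370: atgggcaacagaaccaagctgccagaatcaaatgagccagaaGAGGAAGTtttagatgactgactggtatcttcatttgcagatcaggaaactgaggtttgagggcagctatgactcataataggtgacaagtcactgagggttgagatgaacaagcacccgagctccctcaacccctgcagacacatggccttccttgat
For NF-kB, the factor activated by LPS, capitals mark a match to its 10-letter consensus.
Desert region near Marcks, NF-kB, chr10:37338405-37338605: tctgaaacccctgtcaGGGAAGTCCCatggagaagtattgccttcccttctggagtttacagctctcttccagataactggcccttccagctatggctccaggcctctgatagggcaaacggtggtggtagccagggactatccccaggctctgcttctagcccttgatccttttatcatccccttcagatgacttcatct
For CTCF, capitals mark a match to the core of its consensus.
Desert region near Reep3, CTCF, chr10:66814496-66814696: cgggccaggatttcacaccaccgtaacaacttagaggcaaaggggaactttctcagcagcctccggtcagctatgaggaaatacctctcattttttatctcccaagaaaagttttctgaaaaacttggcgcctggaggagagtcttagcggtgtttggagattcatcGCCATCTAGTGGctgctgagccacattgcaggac
The windows for AP-1 and PU.1/ETS had scores of 2166 and 2074. The CTCF window, the best scored of its kind, had a score of 1357.

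Accessible regions were sparse in the deserts. Sequence that met the desert rule made up 722 Mb, or 30.1% of the known autosomal bases, but held 4.70 ± 2.19 regions per Mb (SD, n = 19 autosomes). Intergenic sequence within reach, that is, at most 100 kb from a coding start but over 1000 bp from every start, held 25.8 ± 4.45 regions per Mb, and intronic sequence held 27.5 ± 3.47. Deserts had the lower density on 19 of 19 autosomes in both comparisons, with ratios of 0.182 and 0.171 (paired permutation test over autosomes, adjusted p = 4.67e-05 each). Autosomes are parts of a single catalog and not biological replicates, so these p-values measure the spread between chromosomes only. The repeat-masked share of the desert sequence was 38.7%, against 38.3% within reach and 28.9% in introns, and its GC content was 39.4%, against 42.7% and 42.4%.

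**Figure D1:**
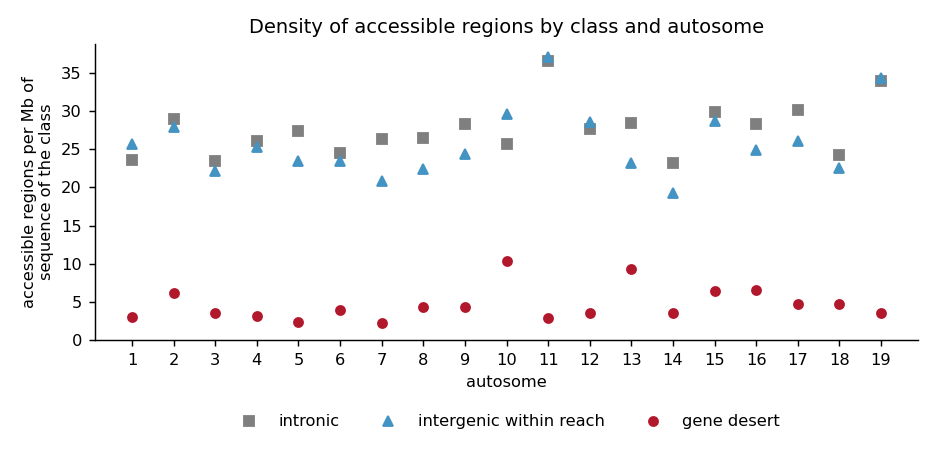
Accessible regions per Mb of sequence (y axis) that itself meets the rule of each class, for the 19 autosomes (x axis). Circles are gene deserts, triangles intergenic sequence within reach of a coding start and squares introns. On each autosome the desert value lies below both others, and the desert values are highest on chromosome 10 (10.3 per Mb) and chromosome 13 (9.33 per Mb).

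The desert regions were unevenly spread. Chromosome 10 had 388 of them and chromosome 13 had 351, at 10.3 and 9.33 per Mb, whereas chromosome 7 had 67, at 2.30 per Mb. Stretches over 100 kb from every coding start and outside coding genes were counted across the starts of noncoding transcripts. Of 1354 such stretches of 50 kb or more, 760 (56.1%) had no desert region, and these made up 379 Mb. At the other extreme, 101 stretches with 10 or more regions, which covered 8.77% of the sequence of such stretches, held 1753 desert regions, 52.4% of all.

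No difference in summit score between desert regions and other distal regions passed the test. The median score per autosome was 705 ± 47.8 in deserts, 721 ± 23.8 within reach and 722 ± 19.4 in introns (n = 19, adjusted p = 0.303 and 0.145 by the permutation test). When only regions over 200 kb from a coding start were kept, deserts were lower, with a difference in median score of -51.6 from regions within reach and of -53.4 from intronic regions (permutation test, adjusted p = 0.00191 and 0.00234). For desert regions outside noncoding genes the differences were -27 (not called) and -28.8 (permutation test, adjusted p = 0.0928 and 0.0378). Desert scores ran from 108 to 2166 with a median of 706, and 41.1% of them reached the median of all regions on the autosomes, promoters included. The median peak width was 221 ± 6.17 bp, against 220 ± 2.90 and 221 ± 2.42 bp (permutation test, adjusted p = 0.595 and 0.975).

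Desert regions less often had several summits than regions within reach. On average over autosomes, 18.3% ± 3.34 had 2 or more summits, against 21.5% ± 1.30 within reach (lower on 15 of 19 autosomes, permutation test, adjusted p = 0.00546) and 20.1% ± 1.37 in introns (lower on 14 of 19, adjusted p = 0.0577). These differences were -3.15 and -1.82 percentage points. With desert regions over 200 kb from a coding start they were -8.09 and -6.76 (permutation test, adjusted p = 5.25e-05 each). The one against introns also passed under other alternatives, given below. The gap to the next extended region had a median of 7616 ± 3503 bp, above the 3500 ± 455 and 3458 ± 370 bp of the other classes (adjusted p = 0.00014 and 0.000105, permutation test). Gap and density are both related to gene density, so the longer gap is no result apart from the lower density. GC content at desert summits was 46.7% ± 1.09, below the 48.8% ± 0.850 within reach and the 48.0% ± 0.785 in introns (permutation test, adjusted p = 4.67e-05 and 0.00042). Windows at least 50% repeat-masked made up 6.71% ± 2.55 in deserts and 8.60% ± 1.47 within reach (adjusted p = 0.00538, permutation test), but this call was lost among summits at or above the median score (adjusted p = 0.0975). Against introns (7.30% ± 0.777, n = 19 autosomes) the permutation test gave an adjusted p of 0.423.

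The summits of desert regions were rich in motifs of macrophage factors when set against their own surroundings, as were those of regions within reach. A window held an AP-1 site in 773 of 3346 regions (23.1%, 95% Wilson interval 21.7 to 24.6%), against 3.45% of windows of the same size 1000 bp away. PU.1/ETS sites were found in 448 regions (13.4%, 12.3 to 14.6%), 10.6 times the flank share of 1.26%. C/EBP sites (TTGCNNAA, where N is any base) occurred in 556 regions (16.6%, 15.4 to 17.9%) and 1.79 times as often as in flanks. Within reach the ratios of summit to flank were 5.84 for AP-1, 9.75 for PU.1/ETS and 1.73 for C/EBP, against 6.70, 10.6 and 1.79 in deserts, and the difference between the classes in these ratios was not tested. Mean GC content was 46.4% at desert summits and 42.4% in their right flanks, and its part in the motif ratios was not tested. At least 1 of PU.1/ETS, AP-1, C/EBP and RUNX was present at 1745 summits (52.2%), and 353 (10.5%) had 2 or more of them. These combined shares are given without the same count in flanks or over all regions. Of flanks, 9.29% held a C/EBP and 4.11% a RUNX pattern.

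Of 14 consensus motifs searched on both strands, 11 were more frequent at desert summits than in the flank to the right (exact McNemar test, 3248 pairs). For RUNX (TGTGGTT) the share was 10.3%, against 4.11% in flanks (exact McNemar test, adjusted p = 2.86e-21). NF-kB sites were present at 6.04% and 1.32% (exact McNemar test, adjusted p = 2.66e-26). The STAT6 motif TTCNNNNGAA, recognised by the factor that IL-4 activates, showed a small difference of 8.97% against 6.46% (exact McNemar test, adjusted p = 0.0002), and lost its call among summits at or above the median score (ratio 1.15, adjusted p = 0.495, exact McNemar test) and over 200 kb from a coding start (ratio 1.24, adjusted p = 0.153, exact McNemar test). IRF sites (GAAANNGAA) were at 10.9% against 7.86%, MEF2 sites at 1.67% against 0.338%, CRE sites (TGACGTCA) at 0.418% against 0.108% and the generic E-box (CAGCTG) at 14.4% against 8.09%. The CRE call, which rests on 14 desert regions, was lost with flanks at 2000 bp (exact McNemar test, adjusted p = 0.0685), among summits at or above the median score (0.495) and outside noncoding genes (0.0895). The motifs that did not pass the test were STAT (TTCNNNGAA, 7.80% against 6.92%), SP/KLF (GGGGCGGGG, 0.598% against 0.415%) and the E-box of MiT factors (TCACGTGA, 0.299% against 0.123%). AP-1 and PU.1/ETS sites were both present at 58 desert summits (1.73%). No share over all regions or from separate occurrence was set beside this count, so it does not show that the motifs go together. Over all 58386 accessible regions on the autosomes, 17.4% of windows held AP-1, 10.1% PU.1/ETS, 11.6% C/EBP, 8.31% RUNX, 5.38% NF-kB, 8.44% IRF, 6.91% STAT6, 6.49% STAT, 3.66% CTCF, 4.57% SP/KLF, 1.07% CRE, 0.947% MEF2, 0.534% the MiT E-box and 13.6% the generic E-box. A match describes letters and not bound protein, and the STAT6, STAT and IRF patterns can overlap each other.

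CTCF sites were scarce at desert summits. They were found at 52 of 3346 (1.55%, 1.19 to 2.03%). Over autosomes the share was 1.57% ± 1.00, against 5.35% ± 1.17 within reach (lower on 19 of 19, permutation test, adjusted p = 0.00028) and 3.403% ± 0.620 in introns (lower on 18 of 19, adjusted p = 0.00042). Of flanks, 0.0462% had one (exact McNemar test, adjusted p = 1.22e-12), and this call was lost when only the better scored summits, from the median of all regions upwards, were kept (exact McNemar test, adjusted p = 0.0608). The 52 regions with a CTCF site had a median score of 519.5, against 711 for the 3294 without one.

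The opposite was seen for C/EBP and PU.1/ETS. C/EBP sites were present at 16.5% ± 2.83 of desert summits per autosome, against 13.4% ± 1.38 within reach (higher on 17 of 19) and 12.9% ± 1.25 in introns (higher on 18 of 19, permutation test, adjusted p = 0.00063 for both). For PU.1/ETS the shares were 13.7% ± 3.04, 11.1% ± 1.05 and 11.6% ± 0.947 (adjusted p = 0.00728 and 0.0359, permutation test). AP-1 was at 22.6% ± 3.08 in deserts, 20.5% ± 1.44 within reach (permutation test, adjusted p = 0.0546) and 20.4% ± 1.31 in introns (adjusted p = 0.0359). SP/KLF sites were rarer than within reach, at 0.543% ± 0.452 against 1.20% ± 0.466 (permutation test, adjusted p = 0.00409), but with a window of 50 bp to either side the difference was -0.112 percentage points and not called (permutation test, adjusted p = 0.521). Among summits scored at least as high as the median of all regions, the number of motifs more frequent in deserts dropped from 2 to 0 against regions within reach, and from 3 to 1 (C/EBP) against introns. The differences behind the calls within reach changed less than the calls, at 2.86 percentage points for C/EBP (3.04 with all scores) and 2.15 for PU.1/ETS (2.66 with all scores). The calls of PU.1/ETS and AP-1 against introns were each lost under 4 of the alternatives, in which the difference was 1.09 to 2.14 percentage points for PU.1/ETS (2.10 as reported) and 1.43 to 2.42 for AP-1 (2.23 as reported). NF-kB, RUNX, IRF and STAT6 passed in neither comparison, with NF-kB at 6.02% ± 1.35 in deserts, 5.91% ± 0.944 within reach and 5.43% ± 0.788 in introns.

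**Figure D2:**
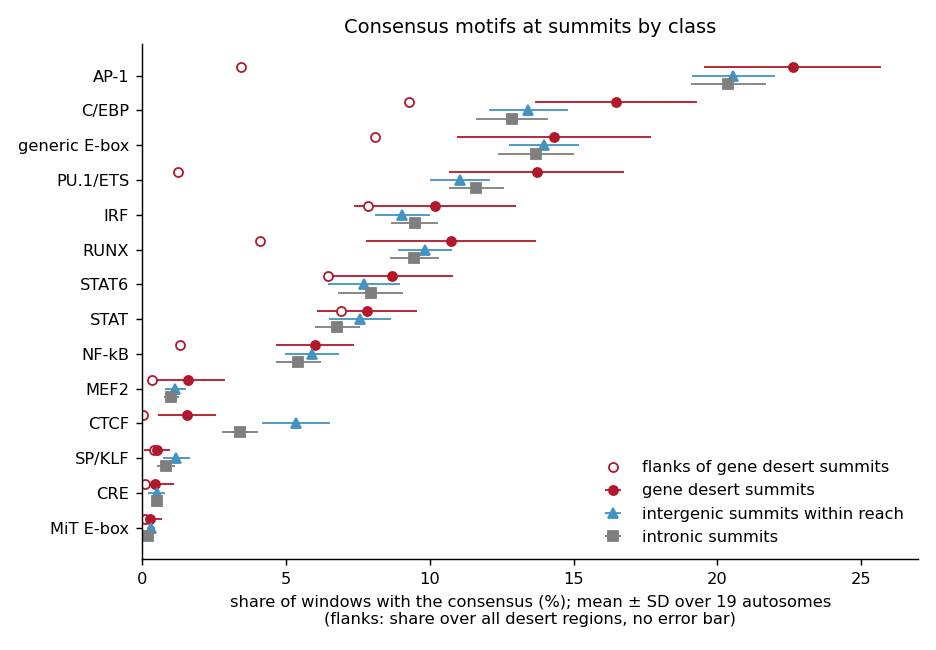
Share of windows (summit and 100 bp to either side) with each of 14 consensus motifs (x axis, mean and SD over 19 autosomes) at summits in gene deserts (filled circles), intergenic regions within reach (triangles) and introns (squares); open circles give the flanks of desert summits, pooled, without an error bar. AP-1, C/EBP and PU.1/ETS lie well to the right of their flanks, and CTCF is at 1.57% in deserts against 5.35% within reach.

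The supply of sites in the sequence itself was then counted, a comparison added after the motif shares were known. Deserts held 2.35 ± 0.426 CTCF consensus sites per Mb, against 6.83 ± 1.20 within reach and 5.40 ± 1.00 in introns, and were lower on 19 of 19 autosomes. C/EBP sites went the other way, at 569 ± 13.1 per Mb in deserts and 490 ± 14.99 and 479 ± 23.6 per Mb elsewhere. PU.1/ETS sites numbered 59.3 ± 1.896, 68.6 ± 2.49 and 60.5 ± 1.54 per Mb. AP-1 sites were fewer in deserts, at 153 ± 5.41 against 173 ± 7.23 and 174 ± 4.03 per Mb, although their share at desert summits was not the lower one. NF-kB sites were fewer as well, at 68.6 ± 4.04 against 91.0 ± 5.61 and 80.9 ± 7.28 per Mb. These supplies are given without a test.

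Sites in a reference peak were a smaller share in deserts, and so were bases of any kind. Of all desert bases, 0.138% ± 0.0672 lay in a peak, against 0.828% ± 0.164 within reach (SD, n = 19 autosomes). The lower shares of sites in deserts, given next, are thus no result apart from the lower density. Of desert CTCF sites, 3.95% ± 3.24 lay in a reference peak, against 23.8% ± 4.43 within reach. For PU.1/ETS the shares were 1.41% ± 0.658 and 5.69% ± 0.969, and for AP-1 they were 1.04% ± 0.487 and 4.51% ± 0.621. C/EBP sites were open in 0.208% ± 0.112 and 1.18% ± 0.245, and NF-kB sites in 0.655% ± 0.394 and 3.16% ± 0.644. For these 5 motifs the share within reach was 4.04 times (PU.1/ETS) to 6.03 times (CTCF) as high, and no difference between motifs was tested.

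To see whether position inside the desert matters, members were grouped by distance. Their distance to the nearest coding start had a median of 178 kb and reached 2140 kb, and 57 lay over 1000 kb away. The median score was 727 at 100 to 150 kb (1179 regions), 716 at 200 to 300 kb (763 regions) and 654 beyond 1000 kb. GC content was 47.2% in the nearest bin and 41.8% in the farthest one, and CTCF sites were at 1.95% and at 0 of 57 windows, which allows a share of up to 5.26%. Regions over 500 kb away were tested against those at 100 to 200 kb on the 8 autosomes with at least 10 of both, and 0 of 6 measures passed after adjustment, with GC content alone at an unadjusted p under 0.05. It was 43.5% ± 2.43 against 46.4% ± 0.569 (lower on 7 of 8 autosomes, permutation test, p = 0.0228, adjusted p = 0.137), and was called when the bins were set at over 400 kb and up to 250 kb (permutation test, adjusted p = 0.0217). At the limit of the rule itself, the 423 regions at 90 to 100 kb had a median score of 706 and the 308 regions at 100 to 110 kb one of 743, with CTCF sites at 2.60% and 1.95%.

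**Figure D3:**
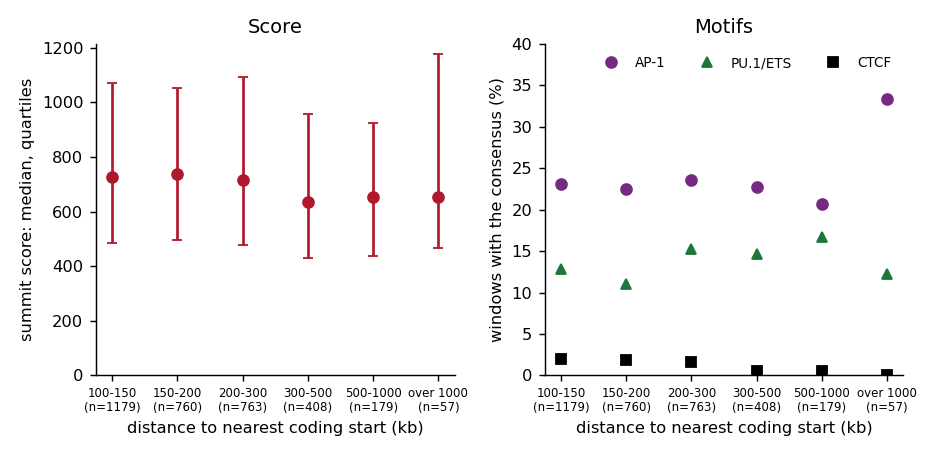
Desert regions by distance to the nearest coding start (x axis, kb, with the number of regions). Left, summit score as median with quartiles; right, share of windows with an AP-1, PU.1/ETS or CTCF consensus, without error bars. The medians of the score lie between 634 and 737, and the CTCF share runs from 1.95% in the nearest bin to 0 of 57 windows in the farthest.

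The 10 best scored desert regions outside chromosome 18 lay at 122 to 279 kb from genes of varied function. The region near Med13l, chr5:118403611-118405494, had a score of 2166 and a single summit. Scores of 2140 were found for the region near Reep3, chr10:66863535-66866064, for one 124 kb downstream of the start of Rybp, a Polycomb component (chr6:100162397-100164265), and for one 187 kb upstream of Ubl3 (chr5:148738417-148740244). None of these 3 lay in an annotated noncoding gene. The region 200 kb upstream of Marcks, a substrate of protein kinase C that binds actin, had a score of 2114 and 6 summits and spanned chr10:37333248-37340609 within the long noncoding RNA gene Gm26535.

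Regions near Zfp703 (279 kb upstream, chr8:26696707-26699635) and Uaca (205 kb downstream, chr9:60997514-61000229) both scored 2074. The region 136 kb downstream of the start of Ptprc, which encodes the leukocyte phosphatase CD45, scored 2061, had 4 summits and carried PU.1/ETS, AP-1 and NF-kB sites in its window (chr1:138036781-138040209). The last of the 10 were 122 kb upstream of Hif1a, the oxygen-regulated factor (2034, chr12:73778502-73780540), and 126 kb upstream of Agr3 (2008, chr12:35798550-35800345). AP-1 sites were present at 5 of the 10 (those near Med13l, Reep3, Ubl3, Uaca and Ptprc), beside 23.1% of all desert regions, and the difference was not tested.

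The most remote region was chr1:102627436-102629103, 2140 kb upstream of Cdh20, with a score of 706 and no other accessible region within 724 kb. Its neighbour across that gap, chr1:101901481-101903630, was 1805 kb downstream of the start of Cntnap5b and scored 1188. A pair of regions 1816 and 1812 kb upstream of G6pd2 lay 2.33 kb from each other, at chr5:59991934-59993582 and chr5:59995915-59997656, and scored 467 and 1606. The fifth, 1653 kb upstream of Pabpc4l (chr3:48100211-48101956), scored 1594 in a window that was 73.1% repeat-masked.

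Regions of several summits were of different kinds. The largest number, 10 summits, was in chr10:3110992-3117821 near H60c, where the window was 100% repeat-masked and the next region was 455 kb away. Next came a pair upstream of Klf14, with 8 summits at chr6:31122249-31127557 in the long noncoding RNA gene Lncpint and 7 summits at chr6:31075140-31082324, both windows free of repeats. The region near Tcp10c, chr17:13549984-13553884, had 6 summits, a 100% repeat-masked window and the long noncoding RNA genes 2700054A10Rik and AC174800.1 over it, and the region near Marcks had 6 summits as well. The central 76 bases occurred once in each of these 5 regions.

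Desert regions stood alone or in clusters. When members within 25000 bp of each other were chained, 905 (27.0%) stood alone and 1109 (33.1%) fell into 140 clusters of 5 or more. The other classes were not chained, and their gaps to the next region were shorter, so clustering is not shown to be particular to deserts. The largest cluster had 38 regions with 65 summits over 262 kb (chr2:128225814-128487771). Its nearest coding genes were Bcl2l11, which encodes the pro-apoptotic protein BIM, and Spdye4c, and it overlapped the long noncoding RNA genes Gm14005 and Gm29010. Scores in it ran from 242 to 1812 with a median of 1019.

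A cluster of 25 regions spanned 209 kb downstream of Maf, the bZIP factor c-MAF (chr8:115391700-115600798), with a median score of 867 and no noncoding gene over its members. Another, of 22 regions over 227 kb, lay 237 to 461 kb downstream of the start of Myc and overlapped Pvt1. The cluster beside Prdm1, which encodes the repressor BLIMP-1, had 20 regions over 141 kb (chr10:44564466-44705141) and overlapped the noncoding genes Gm48061, Gm35154, Gm48066 and Gm47388. The fifth, 1 of 3 clusters of 15 regions and the shortest of them, spanned 111 kb near Ado and Zfp365 (chr10:67650770-67761482) and overlapped 1700030E10Rik. Over all desert regions, 716 (21.4%) lay in the body of a long noncoding RNA gene. The share of desert sequence or of all regions in such genes was not set beside it, so no association is shown.

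Which genes border the occupied deserts was examined by the nearest coding start. The gene nearest to the most members was Cited2, a transcriptional co-regulator that binds CBP and p300, with 53 regions, all upstream, from 110 to 1426 kb. Myc had 43, of which 42 were downstream. Zeb2, a zinc finger factor needed for the identity of several macrophage types, had 37, all upstream, between 103 and 1417 kb. The nearest coding gene is a label of position only; no contact or effect on transcription was measured.

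Adgrl2, which encodes the adhesion receptor latrophilin-2, had 30 regions, followed by the transcription regulators Klf6 with 28, Id2 with 26, and Klf4 and Maf with 25 each. Gsdmc also had 25, on the far side of the Myc desert. Sides were often exclusive: all regions of Id2 and Klf4 were upstream and all of Maf downstream, while Klf6 had 18 of 28 upstream. The desert sequence nearest to each gene was not counted by side, and a side without such sequence can hold no member. Scores at these genes covered a wide range, for Cited2 196 to 1708 with a median of 644, for Zeb2 315 to 1903 with 812 and for Maf 448 to 1594 with 867. Over all members, 1754 (52.4%) lay upstream of their nearest coding start.

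**Figure D4:**
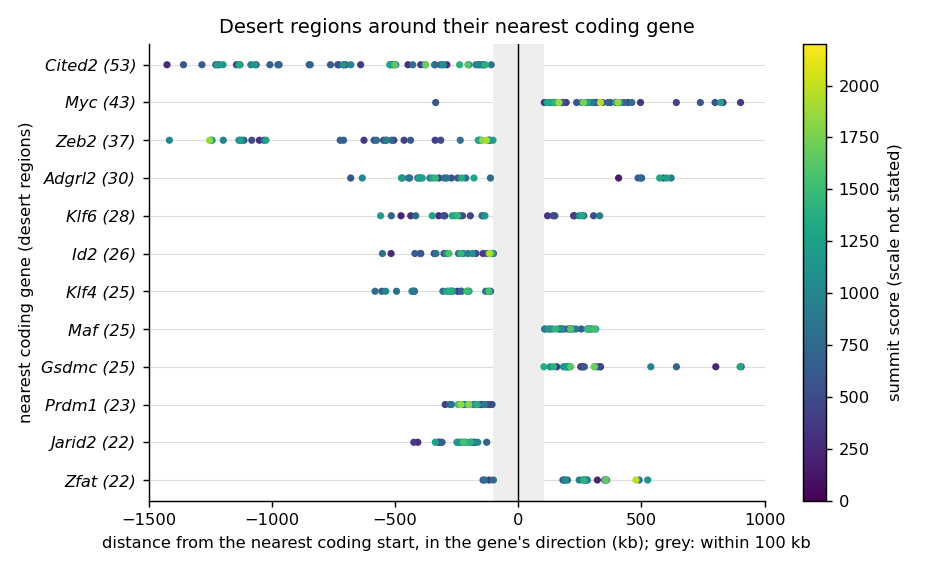
Desert regions (points) around the 12 coding genes that are nearest to the most of them. The x axis is the distance from the nearest coding start in kb, negative upstream of the gene, the colour is the summit score and the number of regions is in brackets; the grey band is the 100 kb that the rule leaves out. The last place is tied at 22 regions, and Runx1, also with 22, is not drawn. All points of Cited2, Zeb2, Id2 and Klf4 are upstream and all of Maf downstream, and the desert sequence on either side was not counted.

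Gene lists drawn from general knowledge were then set beside the desert sequence. The lists were chosen with earlier results of these data known, so the contrasts between them are description only. A gene was said to border a desert if it was the nearest coding gene for at least 50 kb of desert sequence. Of 15 bordering macrophage transcription factors, 14 had 1 or more desert regions, against 707 of all 1900 bordering coding genes (37.2%). Together they had 242 regions in 8.26 Mb, or 29.3 per Mb, with a median of 11 per gene, whereas all bordering genes had 4.33 per Mb and a median of 0. All 15 factors had a reference peak within 1000 bp of an annotated start. Among the 911 bordering genes with such a peak, 52.9% had a desert region, at 7.59 per Mb and a median of 1. The listed factor without a region was Bach1, in 78.6 kb. Mitf, Nr4a2 and Tfec had 1 each, and Nr4a2 and Tfec, at 1.36 and 2.22 per Mb, lay below the density over all bordering genes. Besides Myc, Zeb2, Klf6, Id2, Klf4 and Maf, the list held Runx1, the haematopoietic factor, with 22 regions, all upstream, Jun with 11, Mef2c with 9, the repressor Bcl6 with 8 and the nuclear receptor Nr4a3 with 5. Ets2 had 8 regions too, scored 458 to 1955, but just 38.3 kb of desert sequence, below the limit for bordering.

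Among 23 bordering developmental regulators of other lineages, 5 had a desert region, at 1.14 per Mb, beside 37.2% of genes and 4.33 per Mb over all bordering genes, and no difference between lists was tested. Sox2 and Shh, for example, had none. The most were at Sox9, a regulator of cartilage, with 7 regions 206 to 383 kb downstream of its start and scores up to 1670, although no reference peak lay within 1000 bp of a Sox9 start. Of 29 neural adhesion and synapse genes, which border 38.4 Mb of desert, 3 (Epha7, Cdh10 and Pcdh7) had a region, 4 in all or 0.104 per Mb, and Pcdh17 had none in 3146 kb.

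The lists differed in how many of their genes bordered a desert, which 8.67% of all coding genes did. It was 93.5% of the 31 neural adhesion and synapse genes, 76.7% of the 30 developmental regulators and 36.6% of the 41 macrophage transcription factors. Of 25 LPS response genes 3 did (12%), and Tnfaip3, encoding the NF-kB inhibitor A20, had 7 regions 101 to 161 kb upstream, Edn1 had 1 and Il12b had 0. Together these 3 genes had 8 regions in 0.299 Mb, or 26.7 per Mb. None of 16 IL-4 response genes bordered a desert. Of 20 macrophage surface and effector genes, 2 bordered a desert: Tlr4 had 1 region, 620 kb downstream, and Msr1 had none, which gave 0.675 per Mb.

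**Figure D5:**
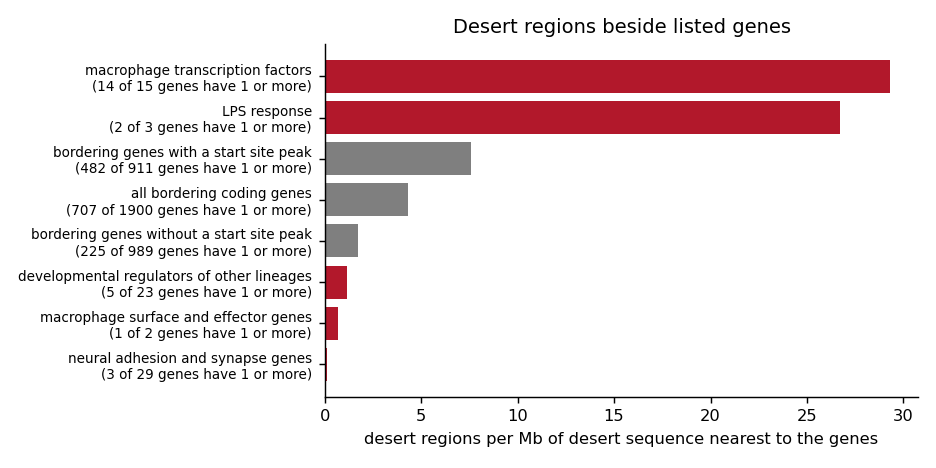
Desert regions per Mb of desert sequence (x axis) for which a gene of each list is the nearest coding gene, with the number of bordering genes that had 1 or more. Red bars are gene lists from general knowledge, chosen with earlier results of these data known. Grey bars are all bordering genes and their split by a peak at the start. Macrophage transcription factors are at 29.3 per Mb and neural adhesion and synapse genes at 0.104 per Mb.

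Desert regions were denser beside genes whose own promoter was open, a comparison chosen after the counts by list were known. Of the 1900 bordering genes, 911 had a reference peak within 1000 bp of an annotated start, and 482 of these (52.9%) were nearest to 1 or more desert regions, against 225 of 989 (22.8%) without a start site peak. Per autosome the density was 7.46 ± 3.39 regions per Mb beside genes with a start site peak and 1.95 ± 1.06 beside genes without one (higher on 19 of 19 autosomes, permutation test, p = 1e-05, the smallest it can give). Among the bordering macrophage transcription factors, 15 of 15 had a start site peak, and among the neural adhesion and synapse genes, 3 of 29.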

How the data were processed

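ATAC-seq reads of 18 libraries (9 groups of 2) had been processed by the authors. Per the study's methods, single-end reads of 76 bases were cleaned with BBDuk and Trimmomatic (0.39 per the submitters' notes), aligned to mm10 with the mapping steps of ShortStack and filtered with SAMtools (1.9). Peaks were called with MACS2 (2.2.6) without a model or local background, with a fixed extension, with duplicates kept and with summits called, and had to pass a strict q-value and overlap between replicates. Keeping duplicates lets PCR copies add to a peak, and no shift of reads to the Tn5 cut site is named. The deposited lists hold positions and, for summits, a score that the authors pooled over libraries. Its scale is not given in the sources used here. None of the lists was split by library (columns of other samples: 0). Hence no stimulus, time or replicate could be compared and the depth is unknown.

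Positions were read against assembly GRCm38.p6, which shares its primary coordinates with mm10, and GENCODE M21, and are counted from 1. A coding start was the start of a coding transcript of a protein-coding gene. With the starts of all transcripts of such genes, 225 of the 3346 members would lie within 100 kb, and 49 lay within 100 kb of a RefSeq coding start. Class measures (7) and the shares of 14 motifs were compared over 19 autosomes by sign-flip permutation tests of paired differences (100000 resamples, two-sided), with Benjamini-Hochberg adjustment over 14 and 28 tests and over 6 tests for far against near regions. The smallest p is 1e-05 before adjustment. Motifs were searched within 100 bp of the best summit. Flanks lay 1000 bp away, those overlapping a reference peak were left out, the flank share is the mean of both sides and the exact McNemar test used the right side. Intervals are 95% Wilson intervals and cover counting error only. A threshold of 0.05 was used for adjusted p.

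Regions named are the 10 best scored, the 5 farthest, the 5 with most summits and the 5 largest clusters, and windows are printed from these or from the best scored region with each motif; chromosome 18 was left out of both. The window for C/EBP is not reported here. Genes named are the 8 nearest to the most members, listed genes nearest to 5 or more, and noncoding genes over a named region. Clec7a, 1 of the 20 macrophage surface and effector genes, was not matched among the coding genes. Further genes were named after their values were seen. The members and the lists were chosen with earlier results of these data known. Alternatives comprised other desert distances, windows, flanks and bins, all summits, and subsets by score, repeats, copy number, summit number and noncoding genes. The functions were tested on simulated data. Python 3.11.15, numpy 2.4.6, pandas 2.3.3 and SciPy 1.17.1 were used.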

Additional observations from a re-analysis of the deposited data

How the results depend on the processing

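No paired analysis was possible because no list carried a column per library, and no replicate could be left out for the same reason. All class comparisons describe 1 catalog; depth per library is unknown. The lower density, the longer gaps related to it, the lower GC content and the lower CTCF share of deserts kept their direction under the alternatives run for them. They kept their call wherever a test was run, but their sizes moved. The gap difference from regions within reach was 4115 bp, but 2393 bp at 50000 bp and 11433 bp at 200 kb. GC content against introns differed by -1.29 percentage points, but by -0.568 at 50000 bp. The 11 motifs more frequent than in flanks became 8 to 14. The ratio of CTCF at summits to flanks had no value at 200 kb, where no flank held a site. The added comparison of start site peaks kept its direction and call under the added alternatives. The density was not recomputed for the other readings of a coding start. Restricting to summits at or above the median score left the repeat share against regions within reach at a difference of -1.18 percentage points (permutation test, adjusted p = 0.0975). Causes of changed calls were not tested.

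Some calls appeared only under an alternative. The score difference was -51.6 (within reach) and -53.4 (introns) at 200 kb and -28.8 against introns outside noncoding genes. The share with 2 or more summits against introns passed at 50000 bp (-1.39 percentage points), at 200 kb (-6.76), under 50% repeat-masked (-2.18), outside noncoding genes (-3.07) and with all transcripts of coding genes (-2.04). Far against near GC content passed at bins of 400 and 250 kb (-2.76). Peak width changed sign around 0, at -0.553 bp (200 kb) and -6.82 bp (high score) within reach, and at 0.184 bp (single-copy), 0.605 bp (single summits), 0.447 bp (all summits), 0.526 bp (all transcripts), 0.105 bp (RefSeq starts) and 1 bp (pooled) against introns. The far against near score turned to -38.2 (other bins) and -12.6 (under 50% repeat-masked).

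Motifs higher than within reach numbered 4 at 50000 bp and 0 at high score, and motifs lower 1 with a 50 bp window. Against introns, 5 were higher at 50000 bp and 1 at high score, and 2 were lower at 200 kb, outside noncoding genes and with a 200 bp window. At high score PU.1/ETS and C/EBP differed from regions within reach by 2.15 and 2.86 percentage points (permutation test, adjusted p = 0.3 and 0.0552). SP/KLF with a 50 bp window was at -0.112 (adjusted p = 0.521, permutation test). PU.1/ETS against introns lost its call under 4 alternatives and AP-1 under 4, whereas AP-1 passed against regions within reach under 6.

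Motifs that were not called changed sign as follows, in percentage points. Within reach, at high score, RUNX was at -0.408, NF-kB -0.924, STAT6 -0.621, the MiT E-box 0.0950 and the generic E-box -0.394. At 50000 bp, NF-kB was at -0.0132, STAT -0.0302, CRE 0.0653, the generic E-box -0.00434 and the MiT E-box 0.265, the last with a call (permutation test, adjusted p = 0.003). NF-kB was at -0.0820 for single-copy summits. All summits gave NF-kB -0.0417 and the generic E-box -0.104, and the 200 bp window NF-kB -0.412, STAT -0.0893 and the generic E-box -0.389. STAT was at -0.00398 with RefSeq starts, CRE at 0.187 at 200 kb and 0.0196 for single summits, and the generic E-box at -0.0950 outside noncoding genes. Against introns, at high score, RUNX was at -0.211, NF-kB -0.0375, STAT6 -0.580 and the generic E-box -0.261. CRE was at 0.0257 (50000 bp), 0.180 (200 kb) and 0.0446 (single summits), the MiT E-box at -0.0205 (all summits) and -0.0226 (50 bp window), and the generic E-box at -0.0365 (all summits).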

Other observations

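Motif content differed along the range of scores within the deserts. In the lowest score quartile of desert regions (852 regions, 108 to 476) a CTCF site was present in 2.35% of windows, and in the highest quartile (822 regions, 1059 to 2166) in 0.365%. PU.1/ETS sites were at 10.3% in the lowest and 15.2% in the highest quartile, AP-1 sites at 22.5% and 26.8%, and C/EBP sites at 16.3% and 17.8%. NF-kB sites went the other way, at 8.10% in the lowest, 4.52% in the third and 6.33% in the highest quartile, and STAT6 sites were at 9.04% and 8.52%. RUNX sites were at 9.51% and 10.2%, and IRF sites at 8.80% and 11.2%. Windows at least 50% repeat-masked made up 9.62% of the lowest quartile and 3.04% of the highest, and regions with 2 or more summits 4.58% and 35.8%. These shares describe 1 catalog and were not tested.

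Few desert regions had a repeated central sequence. The 76 bases centred on the best summit occurred more than once in the genome for 47 of 3346 regions (1.40%, 95% Wilson interval 1.06 to 1.86%), on 16 autosomes. Their scores ran from 108 to 1556 with a median of 524, and 28 of the 47 windows were at least 50% repeat-masked. The most frequent of these sequences had 182 copies. Around desert summits the repeat content was higher: windows at least 50% repeat-masked made up 6.22% at summits and 18.1% at flanks 1000 bp to the right.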
